A study of Mus musculus with 12 samples.

Results

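Fatty acid uptake, activation and oxidation in the kidney was followed through 43 genes, listed by symbol and sorted by the step of the pathway that each product carries out. All 43 symbols were found among the 38924 gene IDs counted in each library, and all 43 passed the filter on low counts, which left 16150 genes to test. RNA had been sequenced from whole kidneys of mice on the C57BL/6J background, in 12 libraries that formed 4 groups of 3. Mice labelled wild-type (WT) or BMAL1 knock-out (KO) were killed in the light phase at zeitgeber time 4 (ZT4, hours since the lights came on) or in the dark phase at ZT16. They had been adapted to days with 12 h of light and 12 h of darkness. The KO mice carried Bmal1lox/lox, Pax8-rtTA and LC1, and at an age of 8 weeks drank doxycycline (2 mg/ml) for 2 weeks. In this model doxycycline switches on Cre through a transactivator under the Pax8 promoter, which is active along the renal tubule. Cre then deletes part of Arntl, the gene of the clock factor BMAL1. The labels do not state which of these alleles the WT mice carried or whether they drank doxycycline. Nor do they tie each library to a mouse of its own, so p-values measure a spread between libraries that may be partly technical. The comparisons ask how the loss of BMAL1 from tubule cells bears on the transcripts of this pathway in the light and in the dark.

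Long-chain fatty acids enter a cell with the help of membrane proteins such as CD36, are bound in the cytosol, and are activated to acyl-CoA by acyl-CoA synthetases. Carnitine transferases carry the acyl group into mitochondria, where a dehydrogenase, a hydratase, a second dehydrogenase and a thiolase shorten the chain in repeated turns, while peroxisomes take very long and branched chains with enzymes of their own. The proximal tubule draws most of its energy from fatty acids, and many genes of the pathway are known targets of the nuclear receptor PPARα.

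Promoter sequences are shown for 3 of the genes that were lower in KO at both times (Slc27a2, Cpt2 and Acaa1b). Acot4 is shown as the single gene with a canonical E-box in the windows that were searched. Each line gives the RefSeq promoter on the GRCm38.p6 build, 250 bases before to 50 bases after the annotated start, on the strand of the gene, which lies at chr2:126552774-126553073 (plus) for Slc27a2, chr4:107923540-107923839 (minus) for Cpt2, chr9:119157044-119157343 (minus) for Acaa1b and chr12:84038129-84038428 (plus) for Acot4.
Slc27a2: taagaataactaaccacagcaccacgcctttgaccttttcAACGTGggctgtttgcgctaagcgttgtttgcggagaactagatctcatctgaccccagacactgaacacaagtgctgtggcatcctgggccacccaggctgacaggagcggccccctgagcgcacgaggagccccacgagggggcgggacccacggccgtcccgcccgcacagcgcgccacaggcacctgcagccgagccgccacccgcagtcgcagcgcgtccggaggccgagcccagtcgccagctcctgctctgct
Cpt2: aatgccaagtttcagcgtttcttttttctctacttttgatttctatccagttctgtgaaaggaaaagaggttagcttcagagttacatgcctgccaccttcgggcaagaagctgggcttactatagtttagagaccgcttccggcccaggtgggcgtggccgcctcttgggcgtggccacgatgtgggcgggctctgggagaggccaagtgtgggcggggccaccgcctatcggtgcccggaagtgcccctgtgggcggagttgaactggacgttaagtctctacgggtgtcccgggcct
Acaa1b: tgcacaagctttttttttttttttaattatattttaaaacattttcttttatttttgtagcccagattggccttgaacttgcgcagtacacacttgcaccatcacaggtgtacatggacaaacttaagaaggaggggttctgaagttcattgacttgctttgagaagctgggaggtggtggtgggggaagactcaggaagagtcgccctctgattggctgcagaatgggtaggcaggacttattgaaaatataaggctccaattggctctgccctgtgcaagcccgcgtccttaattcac
Acot4: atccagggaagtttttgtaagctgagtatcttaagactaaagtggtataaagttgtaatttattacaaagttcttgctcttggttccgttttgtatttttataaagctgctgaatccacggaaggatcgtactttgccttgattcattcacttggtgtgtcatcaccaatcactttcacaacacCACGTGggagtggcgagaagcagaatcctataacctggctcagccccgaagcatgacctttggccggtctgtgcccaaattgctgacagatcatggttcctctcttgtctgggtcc
Capitals mark the E-box CACGTG in Acot4 and, on the opposite strand, the related motif CACGTT in Slc27a2. Promoters were listed for 39 of the 43 genes, not for Crat, Decr1, Acaa2 and Hsd17b4, and were searched on both strands for 5 motifs. CACGTG and CACGTT differ in their last letter, so no site counts as both. A gene with more than 1 window counts once. CACGTG, which BMAL1 and CLOCK bind, was found for 1 of the 39 genes (2.56%) against 8.09% of the 27025 genes with a window, and CACGTT for 1 of 39 against 5.44%. The D-box TTATGTAA was in none against 1.11%. AGGNCA repeated in the same direction with 1 base between, a simplified form of the element that PPARα binds, was in none against 0.451%. TAGGTCA, the core of the element bound by REV-ERB and ROR receptors, was in the window of Acadvl alone (2.56%) against 2.97%. A match describes these letters and no binding, and the windows leave out any element farther from the start.

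Each library held 25628887 to 38043491 counts in genes, and 19624 to 20558 genes were detected. The sequence of Arntl removed by Cre is not stated and every cell type of the kidney contributes, so the Arntl counts do not check the labels. Arntl had a log2 fold change of -0.08 ± 0.14 (SE, adjusted p = 0.777) at ZT4, with 13.8 to 20 CPM (counts scaled by TMM to a common library size) in WT and 14.4 to 16.2 CPM in KO. At ZT16 its change was 0.43 ± 0.15 (adjusted p = 0.151), with 8.63 to 11.0 CPM in WT and 12.3 to 15 CPM in KO. Dbp, a direct output gene of the clock, was lower in every KO library, with 6.97 to 11.1 CPM against 23.5 to 32.3 at ZT4 and 6.08 to 9.85 against 20.9 to 23.2 at ZT16. KO ZT16 replicate 2 stood apart from its group. The first principal component of all tested genes, with 46.7% of the variance, placed it at 43, among the WT ZT16 libraries (25.1 to 49.0) and away from KO ZT16 replicates 4 and 6 (-9.73 and -11.8). The second component placed KO ZT16 replicate 2 at -34.7, beyond replicates 4 and 6 (-18.0 and -15.6) and away from WT ZT16 (5.75 to 11.3). Transcripts of the mitochondrial genome took 22.3% of its counts, against 14.1% in replicate 4 and 14% in replicate 6. This share ranged from 18.7% to 22.4% in WT ZT16, from 16.3% to 18% in WT ZT4 and from 12.6% to 12.8% in KO ZT4. Genotype results of the 43 genes whose call changed without KO ZT16 replicate 2 are given with and without it.

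Part of the pathway was lower in the KO kidneys at each time, and most genes did not pass the test at a single time. At ZT4, 36 of the 43 genes had a negative log2 fold change of KO against WT, 10 of them with an adjusted p under 0.05 (268 of 16150 genes, 1.66%, were called lower), and none was called higher (1.63% of all genes were). At ZT16, 37 were negative, 11 were called lower (1.96% of all genes) and none higher (2.07% of all genes). The median log2 fold change of the 43 genes was -0.30 at both times, against 0.00 at ZT4 and 0.02 at ZT16 over all tested genes. 8 genes were called lower at both times, which is 80% of the calls at ZT4 and 72.7% of those at ZT16: Slc27a2, Cpt1a, Cpt2, Crat, Acadl, Pecr, Acaa1b and Acot1. The genes called lower at both times were not counted over the whole table, so these shares have no background beside them. In the fit of only the 6 ZT16 libraries, 4 of the 11 calls at ZT16 were kept (Acsl3, Cpt2, Acadl and Acaa1b) and those of Acot1 (adjusted p = 0.0527), Cpt1a (0.0782), Slc27a2 (0.0814), Crat (0.136), Acsl4 (0.149), Pecr (0.233) and Acaa1a (0.303) were lost. Summed over the 43 genes, WT libraries held 14340 to 14907 CPM at ZT4 and 16600 to 18030 CPM at ZT16, and KO libraries held 11079 to 11342 CPM at ZT4 and 15438, 12672 and 12387 CPM in ZT16 replicates 2, 4 and 6. All KO sums lay below all WT sums of the same time. Abundant genes weigh heavily in these sums: Slc27a2 alone had means of 3838 CPM in WT and 2896 CPM in KO at ZT4, and 4513 and 3003 CPM at ZT16. In whole-kidney RNA, fewer cells of a type and less RNA per cell cannot be told apart, and the share of mitochondrial transcripts moved with these sums, in replicate 2 as well. So did alignments counted as not unique, among which a read may be held more than once. They made up 34.1% to 36.5% of all counts of a library in WT ZT4, 30.8% to 31.3% in KO ZT4 and 38.8% to 41.8% in WT ZT16. In KO ZT16 replicates 2, 4 and 6 they made up 43%, 34% and 33.3%. The part of either in the result was not tested.

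**Figure D1:**
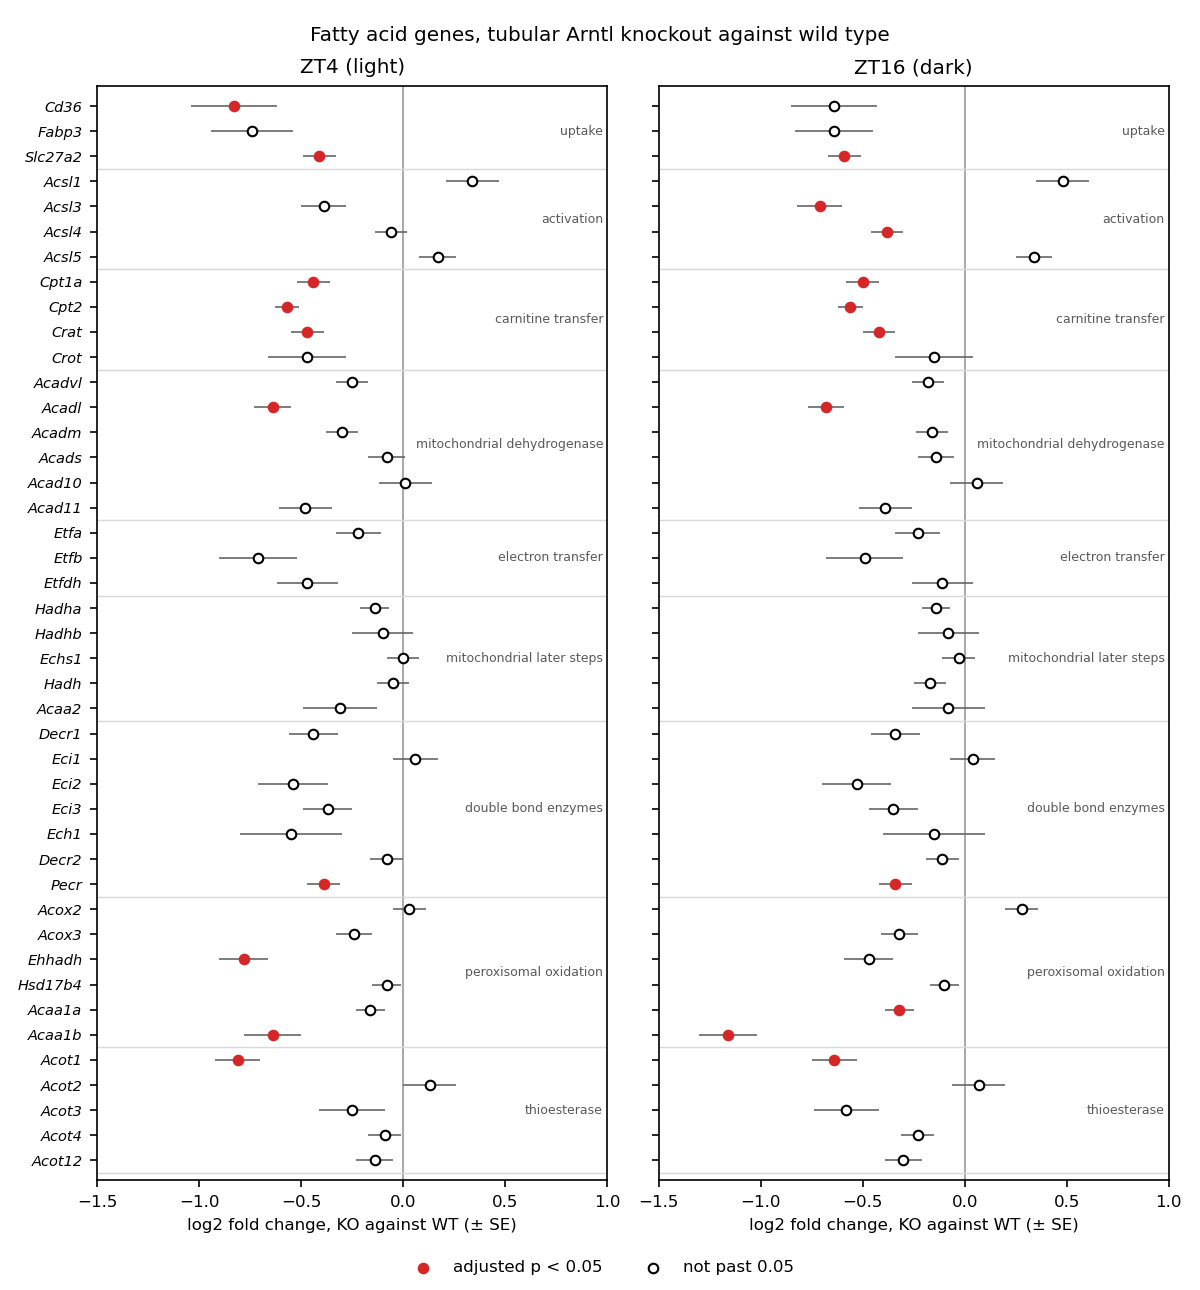
Log2 fold change of KO against WT (x axis, ± SE from the fit of all 12 libraries) for each of the 43 genes, in rows by step of the pathway, at ZT4 (left) and ZT16 (right). Filled red points passed an adjusted p of 0.05: 10 at ZT4 and 11 at ZT16, all of them left of 0, while no point of the later mitochondrial steps is filled and those of Acsl1 and Acsl5 to its right.

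Averaged over both times, 24 of the 43 genes were called lower (5.31% of all genes) and 2, Acsl1 and Acsl5, higher (6.04% of all genes), with a median of -0.28. The libraries of the groups did not overlap, KO below WT, for 30 genes at ZT4 (18.4% of all genes) and for 23 at ZT16 (7.95% of all genes). All comparisons share 1 estimate of the spread, into which KO ZT16 replicate 2 enters. That library was the highest library of its group for 28 of the 43 genes and the lowest for 10. It lay below all WT ZT16 libraries for 24 genes, within their range for 11 and above it for 8, whereas replicates 4 and 6 both lay below WT for 36. These places were not counted over all genes, so they are not shown to be particular to the pathway. Without KO ZT16 replicate 2, 25 genes were called lower at ZT4 (7.48% of all genes), 32 at ZT16 (16.5% of all genes) and 34 over both times (21.7% of all genes). 3 genes, Acsl1, Acsl5 and Acox2, were then called higher at ZT16 (14.7% of all genes), and 3 over both times (20.6% of all genes). The share of genes called rose over the whole table as well as in the pathway. Leaving out KO ZT4 replicate 2 or 6 instead left 5 genes lower at ZT4, and leaving out WT ZT4 replicate 1 or KO ZT4 replicate 4 left 6. At ZT16, 7 genes were lower without KO ZT16 replicate 6. Shares of all genes are not given for these fits without another library.

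**Figure D2:**
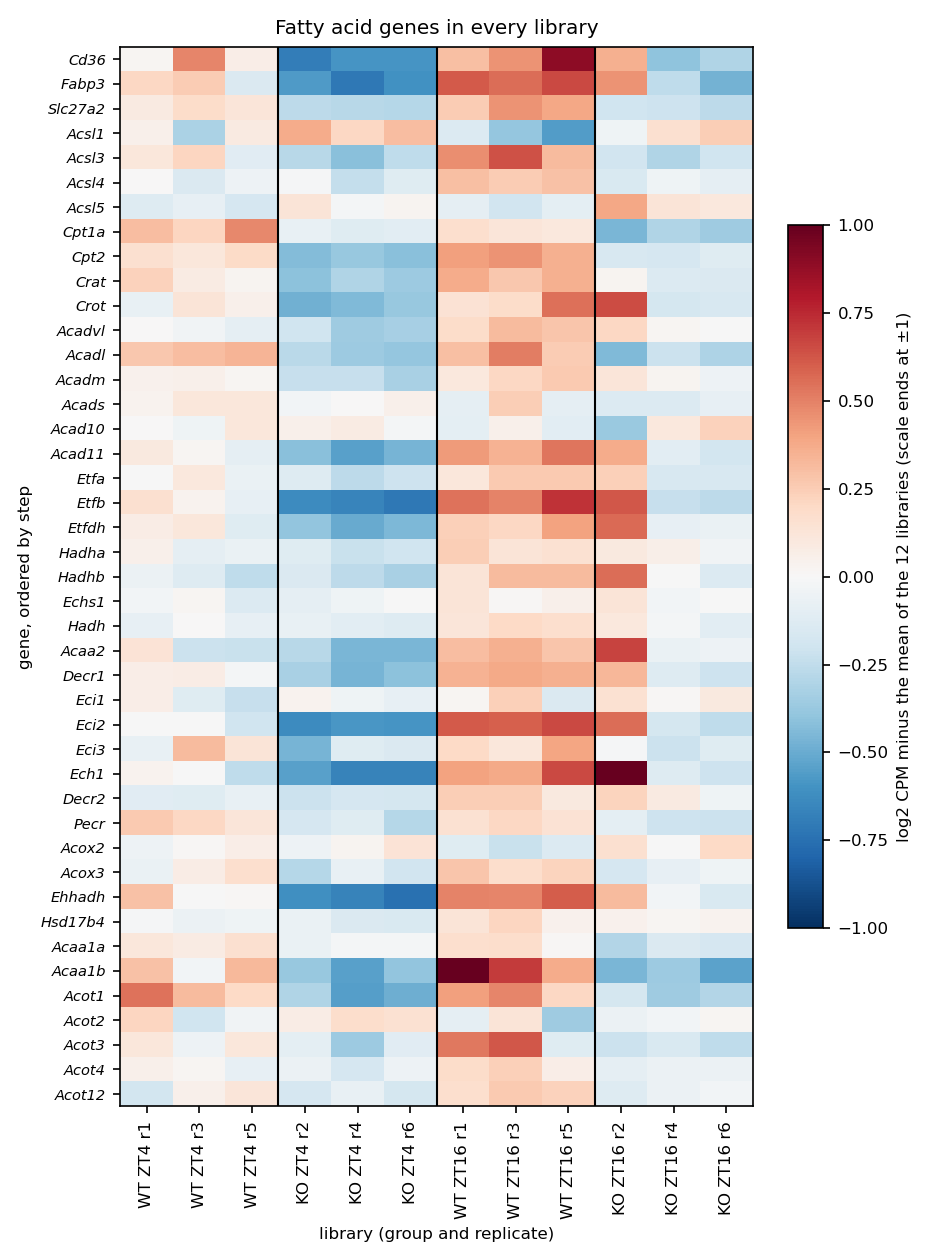
Log2 CPM of each of the 43 genes (rows, in order of step) in each of the 12 libraries (columns), as the difference from the mean of the gene over all libraries, with the color scale ending at ±1. Blue fills most rows of the 3 KO ZT4 libraries and of KO ZT16 replicates 4 and 6, and KO ZT16 replicate 2 has rows in red, such as Ech1 and Crot, beside rows in blue, such as Cpt1a and Acaa1b.

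In the text that follows, values of WT libraries are given in the order of replicates 1, 3 and 5 and those of KO libraries in the order of replicates 2, 4 and 6. Fold changes are log2, KO against WT, ± SE of the fit, with 3 libraries in each group unless a library was left out. An adjusted p is taken over all tested genes. "Without replicate 2" always means without KO ZT16 replicate 2, a fit in which the KO ZT16 group holds replicates 4 and 6 alone.

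All 3 genes of uptake were lower in KO, each called over both times. Slc27a2 (ENSMUSG00000027359, chr2:126552407-126588243) encodes fatty acid transport protein 2, which is also a very long-chain acyl-CoA synthetase, and its promoter is the one shown with CACGTT. It had 3720, 3974 and 3818 CPM in WT and 2927, 2888 and 2874 CPM in KO at ZT4. At ZT16, Slc27a2 had 4178, 4789 and 4572 CPM in WT and 3053, 3038 and 2918 CPM in KO. The KO values stayed near one level while the WT values were higher at ZT16. The change of Slc27a2 with time in WT did not pass (0.23 ± 0.08, adjusted p = 0.099), but did without replicate 2 (0.24 ± 0.07, adjusted p = 0.0191). No KO library reached a WT library at either time. The fold change was -0.41 ± 0.08 (adjusted p = 0.02) at ZT4 and -0.59 ± 0.08 (adjusted p = 0.00134) at ZT16. The ZT4 call was lost when any 1 of the 6 ZT4 libraries was left out (adjusted p from 0.0536 to 0.101). Gm26697 covers 11.2% of the exonic bases of Slc27a2 on the opposite strand. Cd36, the fatty acid translocase of the cell surface, had 752, 1037 and 775 CPM in WT and 459, 491 and 492 CPM in KO at ZT4. At ZT16, Cd36 had 910, 1009 and 1373 CPM in WT and 947, 560 and 601 CPM in KO, so that replicate 2 lay among the WT libraries. Its fold change was -0.83 ± 0.21 (adjusted p = 0.0497) at ZT4 and -0.64 ± 0.21 (adjusted p = 0.125) at ZT16, and -0.93 ± 0.16 (adjusted p = 0.00116) at ZT16 without replicate 2. The ZT4 call was lost in 9 of the 12 fits that left out 1 library, among them each of the 6 ZT4 libraries, WT ZT16 replicates 1 and 3 and KO ZT16 replicate 6 (adjusted p from 0.0518 to 0.206). Fabp3, a cytosolic fatty acid binding protein of heart and muscle that the kidney also makes, had 11.4, 11.8 and 8.95 CPM in WT and 6.68, 6.01 and 6.50 CPM in KO at ZT4. At ZT16, Fabp3 had 15.1, 14.5 and 15.6 CPM in WT and 13.5, 8.28 and 7.12 CPM in KO. All KO libraries lay below all WT libraries at both times. The fold change of -0.74 ± 0.20 at ZT4 and -0.64 ± 0.19 at ZT16 did not pass (adjusted p = 0.0659 and 0.103), while -0.69 ± 0.14 (adjusted p = 0.00752) over both times did. Without replicate 2 it passed at both times, with -0.74 ± 0.11 (adjusted p = 0.000823) at ZT4 and -0.97 ± 0.13 (adjusted p = 0.000172) at ZT16. Since 29.2% of the 50-base windows of its transcript also occur in Fabp3-ps1, its counts are uncertain. Adipocytes express Cd36 as well: 6 adipocyte markers (Adipoq, Plin1, Cidec, Cfd, Lep and Ucp1) summed to 10.2 to 25.1 CPM in WT ZT4, 1.95 to 22.1 in KO ZT4, 10.3 to 16.7 in WT ZT16 and 5.57 to 46.6 in KO ZT16, with 0 of 6 called at either time, and their part in Cd36 was not tested.

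**Figure D3:**
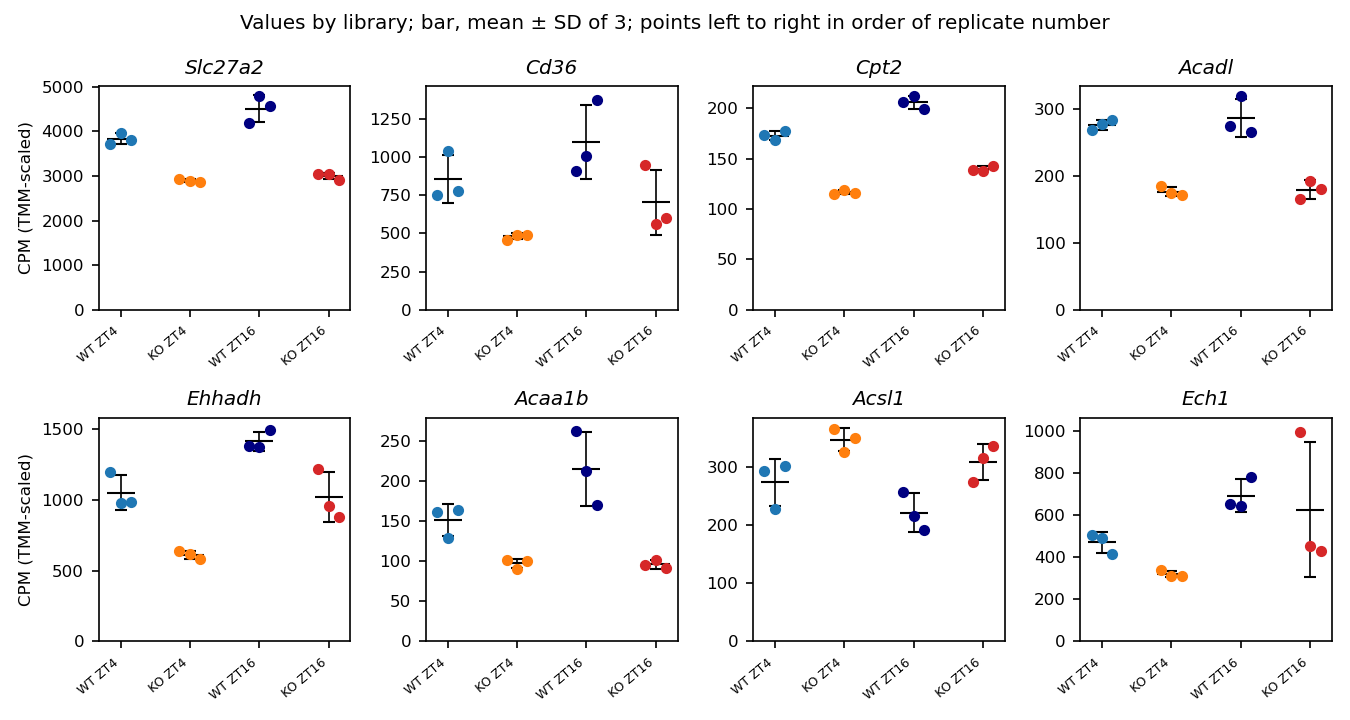
CPM of 8 genes in each library (points, left to right by replicate number) with the mean (bar) and ± SD of 3 libraries, in the 4 groups on the x axis. For Slc27a2, Cpt2, Acadl and Acaa1b each KO group lies below the WT group of its time, Acsl1 lies higher in KO, and in Ech1 and Cd36 the first KO ZT16 point (replicate 2) lies far above the other two.

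The 4 synthetases went in both directions. Acsl3, a long-chain acyl-CoA synthetase of the endoplasmic reticulum and lipid droplets, had 29.7, 31.8 and 25.3 CPM in WT and 22.6, 20.5 and 23.0 CPM in KO at ZT4. At ZT16, Acsl3 had 37.9, 42.6 and 34.1 CPM in WT and 24.0, 22.3 and 23.9 CPM in KO. The KO values were alike at both times and the WT values were higher at ZT16. The fold change was -0.39 ± 0.11 (adjusted p = 0.0688) at ZT4 and -0.71 ± 0.11 (adjusted p = 0.0022) at ZT16, and the ZT4 value passed without replicate 2 (-0.39 ± 0.10, adjusted p = 0.0184). Utp14b covers 5.6% of the exonic bases of Acsl3 on the same strand. Acsl4, a synthetase that prefers arachidonate, had 61.1, 55.3 and 59.0 CPM in WT and 60.7, 51.9 and 56.2 CPM in KO at ZT4, where the groups overlapped. At ZT16, Acsl4 had 75.1, 72.9 and 74.7 CPM in WT and 54.9, 59.3 and 57.3 CPM in KO, with every KO library below WT. Its fold change was -0.06 ± 0.08 (adjusted p = 0.709) at ZT4 and -0.38 ± 0.08 (adjusted p = 0.0166) at ZT16, where leaving out replicate 1 or 5 of WT ZT16, or replicate 6 of KO ZT16, ended the call at the same fold change of -0.38 (adjusted p from 0.0564 to 0.0617). Acsl1, the main long-chain synthetase of tissues that burn fat, had 293, 227 and 301 CPM in WT and 366, 326 and 350 CPM in KO at ZT4. At ZT16, Acsl1 had 257, 216 and 192 CPM in WT and 274, 316 and 336 CPM in KO. All KO libraries lay above all WT libraries at each time. It was called higher over both times with 0.41 ± 0.09 (adjusted p = 0.0152), and not at ZT4 (0.34 ± 0.13, adjusted p = 0.195) or at ZT16 (0.48 ± 0.13, adjusted p = 0.0716). Without replicate 2 it passed at ZT16 with 0.54 ± 0.13 (adjusted p = 0.00619). Acsl5, a synthetase of mitochondria and endoplasmic reticulum, had 87.0, 89.5 and 84.5 CPM in WT and 104, 93.5 and 96.7 CPM in KO at ZT4. At ZT16, Acsl5 had 89.4, 83.0 and 88.8 CPM in WT and 124, 104 and 102 CPM in KO, again without overlap. Its ZT16 fold change was 0.34 ± 0.09 (adjusted p = 0.0525), and 0.23 ± 0.07 (adjusted p = 0.0227) without replicate 2. It was called over both times with 0.26 ± 0.06 (adjusted p = 0.0202), a call lost without WT ZT4 replicate 1, KO ZT4 replicate 2 or WT ZT16 replicate 3 (0.23 to 0.25, adjusted p from 0.0523 to 0.0593).

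Carnitine transfer held 3 of the 8 genes lower at both times. Cpt1a (ENSMUSG00000024900, chr19:3322334-3385733) encodes the outer-membrane enzyme that makes long-chain acylcarnitines and is held to limit the rate of mitochondrial oxidation. It had 535, 502 and 603 CPM in WT and 411, 398 and 401 CPM in KO at ZT4. At ZT16, Cpt1a had 485, 471 and 465 CPM in WT and 315, 351 and 338 CPM in KO. KO lay below WT in every library, and both genotypes had lower values at ZT16 than at ZT4. The fold change was -0.44 ± 0.08 (adjusted p = 0.013) at ZT4 and -0.50 ± 0.08 (adjusted p = 0.00414) at ZT16. Leaving out WT ZT4 replicate 5 or any KO ZT4 library took the ZT4 call away (-0.45 to -0.36, adjusted p from 0.0504 to 0.0718). Cpt2 (ENSMUSG00000028607, chr4:107903981-107923610), which turns acylcarnitines back into acyl-CoA inside the mitochondrion, had 173, 168 and 177 CPM in WT and 115, 119 and 116 CPM in KO at ZT4. At ZT16, Cpt2 had 206, 212 and 199 CPM in WT and 139, 138 and 143 CPM in KO, so that replicate 2 did not differ from its group here. Its fold change was -0.57 ± 0.06 (adjusted p = 0.00039) at ZT4, -0.56 ± 0.06 (adjusted p = 0.000324) at ZT16 and -0.56 ± 0.05 (adjusted p = 8.47e-06) over both times, the smallest adjusted p of the 43 genes in each of these comparisons. Crat (ENSMUSG00000026853, chr2:30400471-30415813), the carnitine acetyltransferase, had 177, 159 and 153 CPM in WT and 113, 122 and 117 CPM in KO at ZT4. At ZT16, Crat had 195, 181 and 193 CPM in WT and 153, 137 and 136 CPM in KO. KO lay below WT throughout, with -0.47 ± 0.08 (adjusted p = 0.00738) at ZT4 and -0.42 ± 0.08 (adjusted p = 0.012) at ZT16, where the call was lost without KO ZT16 replicate 4 or 6 (-0.39 each, adjusted p = 0.0598 and 0.0599). Crot, the peroxisomal carnitine octanoyltransferase, was called in no comparison of the 12 libraries: at ZT4 it had 691, 795 and 750 CPM in WT and 519, 533 and 558 CPM in KO, without overlap, and at ZT16 803, 823 and 1065 CPM in WT and 1139, 643 and 649 CPM in KO, where replicate 2 was above all WT libraries. Without replicate 2 it passed at both times, with -0.47 ± 0.10 (adjusted p = 0.00593) at ZT4 and -0.48 ± 0.11 (adjusted p = 0.00515) at ZT16, and over both (-0.48 ± 0.07, adjusted p = 0.000236).

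Of the 6 acyl-CoA dehydrogenases, which take the first step of each mitochondrial turn, Acadl stood lowest against WT. Acadl (ENSMUSG00000026003, chr1:66830839-66863277), the long-chain enzyme, had 269, 277 and 283 CPM in WT and 185, 174 and 171 CPM in KO at ZT4. At ZT16, Acadl had 275, 319 and 266 CPM in WT and 165, 193 and 181 CPM in KO. The groups were far apart at each time, and replicate 2 was the lowest of all 12 libraries. The fold change was -0.64 ± 0.09 (adjusted p = 0.00146) at ZT4, -0.68 ± 0.09 (adjusted p = 0.000768) at ZT16 and -0.66 ± 0.06 (adjusted p = 2.86e-05) over both times, with both single-time calls kept whichever library was left out. Acadvl, the very long-chain enzyme, had 297, 290 and 278 CPM in WT and 259, 232 and 236 CPM in KO at ZT4. At ZT16, Acadvl had 337, 370 and 360 CPM in WT and 343, 300 and 296 CPM in KO. It was called lower over both times alone (-0.22 ± 0.06, adjusted p = 0.0338), a call lost in 8 of the 12 fits that left out 1 library (-0.22 to -0.20, adjusted p up to 0.0971). Its value was -0.25 ± 0.08 (adjusted p = 0.14) at ZT4 and -0.18 ± 0.08 (adjusted p = 0.3) at ZT16, and without replicate 2 it passed at each time (-0.25 ± 0.06, adjusted p = 0.0219 and -0.26 ± 0.07, adjusted p = 0.0142). Dvl2 covers 42.9% of its exonic bases on the opposite strand, and the strand setting of the counting is not given in the sources used here. Acadm, the medium-chain enzyme, had 1040, 1045 and 1022 CPM in WT and 861, 862 and 805 CPM in KO at ZT4, without overlap. At ZT16, Acadm had 1086, 1164 and 1209 CPM in WT and 1099, 1031 and 974 CPM in KO, with overlap. It was called over both times with -0.23 ± 0.06 (adjusted p = 0.0221) and lost the call in 6 of the 12 fits that left out 1 library (-0.24 to -0.21, adjusted p up to 0.0712). The single times (-0.30 ± 0.08, adjusted p = 0.0641 and -0.16 ± 0.08, adjusted p = 0.359) did not pass in the 12 libraries and passed without replicate 2 (-0.30 ± 0.07, adjusted p = 0.00953 and -0.21 ± 0.07, adjusted p = 0.0395). Acad11, which acts on long chains and is placed in mitochondria and peroxisomes, had 383, 364 and 337 CPM in WT and 268, 246 and 260 CPM in KO at ZT4. At ZT16, Acad11 had 482, 456 and 520 CPM in WT and 464, 334 and 316 CPM in KO. Every KO library but replicate 2 lay below the WT libraries of its time, and the call over both times was -0.44 ± 0.09 (adjusted p = 0.00924). The single-time fold changes were -0.48 ± 0.13 (adjusted p = 0.064) and -0.39 ± 0.13 (adjusted p = 0.138). Without replicate 2 these were -0.48 ± 0.07 (adjusted p = 0.000645) and -0.59 ± 0.08 (adjusted p = 0.000242), and both passed. Acads, the short-chain enzyme, ranged from 102 to 133 CPM over the 12 libraries (-0.08 ± 0.09 at ZT4 and -0.14 ± 0.09 at ZT16) and Acad10 from 49.0 to 74.5 CPM (0.01 ± 0.13 and 0.06 ± 0.13). Neither was called in any comparison, with or without replicate 2, and 20.4% of the windows of Acad10 also occur in Acad12.

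The electron transfer flavoprotein, made of the products of Etfa and Etfb, takes the electrons of the acyl-CoA dehydrogenases, and the Etfdh product hands them to ubiquinone. Etfb had 374, 342 and 316 CPM in WT and 216, 211 and 204 CPM in KO at ZT4, without overlap. At ZT16, Etfb had 488, 470 and 552 CPM in WT and 514, 284 and 278 CPM in KO, where replicate 2 had 1.83 times the mean of replicates 4 and 6 and lay among the WT libraries. It was called lower over both times (-0.60 ± 0.14, adjusted p = 0.0151), and not at ZT4 (-0.71 ± 0.19, adjusted p = 0.0694) or ZT16 (-0.49 ± 0.19, adjusted p = 0.223). Without replicate 2 the values were -0.71 ± 0.08 (adjusted p = 4.61e-05) at ZT4 and -0.85 ± 0.09 (adjusted p = 2.15e-05) at ZT16. As 67.3% of the windows of its transcript also occur in Gm45233, reads may be lost or shared. Etfdh had 299, 306 and 260 CPM in WT and 216, 200 and 208 CPM in KO at ZT4. At ZT16, Etfdh had 334, 327 and 375 CPM in WT and 420, 268 and 271 CPM in KO, with replicate 2 above all WT libraries. The genotype did not pass for it in the 12 libraries (-0.47 ± 0.15 and -0.11 ± 0.15, adjusted p = 0.128 and 0.781) and passed at both times without replicate 2 (-0.47 ± 0.08, adjusted p = 0.0012 and -0.37 ± 0.08, adjusted p = 0.00606), and over both (-0.42 ± 0.06, adjusted p = 0.000102). Etfa ranged from 202 to 291 CPM, with -0.22 ± 0.11 at ZT4 and -0.23 ± 0.11 at ZT16, and was called in no comparison of the 12 libraries. Without replicate 2 its values were -0.22 ± 0.07 (adjusted p = 0.0429) and -0.38 ± 0.08 (adjusted p = 0.00257), and -0.30 ± 0.05 (adjusted p = 0.000484) over both times.

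In the later mitochondrial steps none of the 5 genes was called for genotype in the 12 libraries, at either time or over both, and their medians were -0.10 at ZT4 and -0.08 at ZT16. Hadha and Hadhb encode the alpha and beta subunits of the trifunctional protein of long chains and lie head to head on chromosome 5. Hadha ranged from 196 to 272 CPM (-0.14 ± 0.07 at ZT4 and -0.14 ± 0.07 at ZT16) and Hadhb from 38.3 to 70.9 CPM (-0.10 ± 0.15 and -0.08 ± 0.15), with 62.4% of the windows of Hadhb found in other transcripts, mostly Gm13910. Echs1, the short-chain hydratase, ranged from 233 to 281 CPM (0.00 ± 0.08 and -0.03 ± 0.08) and Hadh, the hydroxyacyl-CoA dehydrogenase, from 392 to 492 CPM (-0.05 ± 0.08 and -0.17 ± 0.08). Acaa2, the mitochondrial thiolase, had 320, 250 and 249 CPM in WT and 239, 211 and 211 CPM in KO at ZT4. At ZT16, Acaa2 had 360, 371 and 351 CPM in WT and 465, 277 and 280 CPM in KO. KO replicates 4 and 6 were below WT at ZT16 and replicate 2 was above it, with fold changes of -0.31 ± 0.18 (adjusted p = 0.358) and -0.08 ± 0.18 (adjusted p = 0.875). Without replicate 2, Hadhb, Hadh and Acaa2 were called lower at ZT16 (-0.33 ± 0.09, -0.24 ± 0.07 and -0.38 ± 0.10) and Acaa2 at ZT4 (-0.31 ± 0.09), while Hadha and Echs1 were called at neither time. Over both times, 4 of the 5 were then called lower: Hadha (-0.16 ± 0.05, adjusted p = 0.0178), Hadhb (-0.22 ± 0.06, adjusted p = 0.0105), Hadh (-0.14 ± 0.04, adjusted p = 0.0199) and Acaa2 (-0.35 ± 0.07, adjusted p = 0.00141).

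The enzymes that move or remove double bonds, needed for unsaturated fatty acids, were mostly lower in KO, with a median of -0.39 at ZT4 and -0.34 at ZT16, and 4 of the 7 were called over both times. Pecr (ENSMUSG00000026189, chr1:72259167-72284314), the peroxisomal trans-2-enoyl-CoA reductase, had 423, 408 and 384 CPM in WT and 315, 324 and 290 CPM in KO at ZT4. At ZT16, Pecr had 393, 407 and 390 CPM in WT and 330, 305 and 304 CPM in KO. The groups did not overlap, and neither genotype passed the test for time. The fold change was -0.39 ± 0.08 (adjusted p = 0.0163) at ZT4 and -0.34 ± 0.08 (adjusted p = 0.0259) at ZT16. The ZT4 call was lost without replicate 1 or 3 of WT ZT4 or replicate 2 or 6 of KO ZT4 (adjusted p up to 0.103), and the ZT16 call without any WT ZT16 library or KO ZT16 replicate 4 or 6 (adjusted p up to 0.108), at fold changes between -0.40 and -0.32. D230017M19Rik covers 11.5% of the exonic bases of Pecr on the opposite strand. Eci2, an enoyl-CoA isomerase, had 109, 109 and 95.3 CPM in WT and 70.5, 73.0 and 72.7 CPM in KO at ZT4. At ZT16, Eci2 had 167, 165 and 173 CPM in WT and 161, 96.5 and 91.8 CPM in KO, where replicate 2 was close to WT and replicates 4 and 6 were far below. It was called over both times (-0.53 ± 0.12, adjusted p = 0.014), and not at ZT4 (-0.54 ± 0.17, adjusted p = 0.12) or at ZT16 (-0.53 ± 0.17, adjusted p = 0.122). Without replicate 2 both passed (-0.54 ± 0.07, adjusted p = 0.000129 and -0.85 ± 0.07, adjusted p = 4.62e-06). Decr1, the mitochondrial dienoyl-CoA reductase, had 243, 245 and 229 CPM in WT and 186, 168 and 175 CPM in KO at ZT4. At ZT16, Decr1 had 295, 302 and 298 CPM in WT and 293, 212 and 201 CPM in KO, with every KO library below WT. Its call over both times was -0.39 ± 0.08 (adjusted p = 0.0123). The single-time fold changes were -0.44 ± 0.12 (adjusted p = 0.0742) and -0.34 ± 0.12 (adjusted p = 0.167), and both passed without replicate 2 (-0.44 ± 0.06, adjusted p = 0.000415 and -0.54 ± 0.07, adjusted p = 0.000147). Eci3, a neighbour of Eci2 on chromosome 13, had 128, 168 and 147 CPM in WT and 97.4, 124 and 122 CPM in KO at ZT4. At ZT16, Eci3 had 155, 146 and 177 CPM in WT and 134, 116 and 124 CPM in KO. KO lay below WT at both times, and the call over both (-0.36 ± 0.09, adjusted p = 0.0209) was lost without WT ZT4 replicate 3, KO ZT4 replicate 2, WT ZT16 replicate 5 or KO ZT16 replicate 4 (-0.34 to -0.31, adjusted p up to 0.0548). Without replicate 2, Eci3 passed at both single times (-0.37 ± 0.11, adjusted p = 0.0369 and -0.42 ± 0.12, adjusted p = 0.0203), and in all libraries at neither (-0.37 ± 0.12, adjusted p = 0.141 and -0.35 ± 0.12, adjusted p = 0.17). Ech1, the dienoyl-CoA isomerase, had 506, 493 and 415 CPM in WT and 339, 312 and 312 CPM in KO at ZT4. At ZT16, Ech1 had 653, 644 and 782 CPM in WT and 996, 452 and 428 CPM in KO. Replicate 2 had 2.26 times the mean of replicates 4 and 6, the largest such ratio of the 43 genes, and the genotype did not pass (-0.55 ± 0.25, adjusted p = 0.273 and -0.15 ± 0.25, adjusted p = 0.833). Without it the values were -0.55 ± 0.09 (adjusted p = 0.00143), -0.67 ± 0.10 (adjusted p = 0.000587) and, over both times, -0.61 ± 0.07 (adjusted p = 2.01e-05). Decr2, the peroxisomal dienoyl-CoA reductase, had 64.8, 64.2 and 66.6 CPM in WT and 60.4, 62.2 and 62.0 CPM in KO at ZT4. At ZT16, Decr2 had 83.1, 82.8 and 74.8 CPM in WT and 81.4, 74.5 and 68.0 CPM in KO, and was not called for genotype in the 12 libraries. Without replicate 2 it was called lower over both times (-0.13 ± 0.05, adjusted p = 0.0421) and at neither time alone. Eci1 ranged from 32.5 to 45.0 CPM with overlapping groups (0.06 ± 0.11 and 0.04 ± 0.11).

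Among the enzymes of the peroxisomal turn, Ehhadh and Acaa1b showed the widest differences. Acaa1b (ENSMUSG00000010651, chr9:119148023-119157093) encodes a 3-ketoacyl-CoA thiolase, the last enzyme of the turn. It had 161, 129 and 164 CPM in WT and 101, 90.3 and 100 CPM in KO at ZT4. At ZT16, Acaa1b had 262, 213 and 170 CPM in WT and 95.6, 102 and 90.8 CPM in KO. The KO values were alike at both times, while every WT ZT16 library was above every WT ZT4 library. The change of Acaa1b with time in WT did not pass (0.51 ± 0.14, adjusted p = 0.0529), but did without replicate 2 (0.51 ± 0.13, adjusted p = 0.00961). Its fold change was -0.64 ± 0.14 (adjusted p = 0.0299) at ZT4 and -1.16 ± 0.14 (adjusted p = 0.000514) at ZT16, and the ZT4 call was lost without WT ZT4 replicate 1 or 5, any KO ZT4 library or WT ZT16 replicate 3 (-0.67 to -0.58, adjusted p from 0.0511 to 0.145). Acaa1a, its close paralog on the same chromosome, had 88.7, 87.0 and 91.7 CPM in WT and 78.4, 80.9 and 80.8 CPM in KO at ZT4. At ZT16, Acaa1a had 92.2, 92.8 and 82.6 CPM in WT and 66.8, 74.0 and 73.0 CPM in KO. KO lay below WT in all libraries, and the fold change was -0.16 ± 0.07 (adjusted p = 0.289) at ZT4 and -0.32 ± 0.07 (adjusted p = 0.0296) at ZT16, where the call was lost in 7 of the 12 fits that left out 1 library (-0.35 to -0.31, adjusted p from 0.0513 to 0.0994). The paralogs share 35.5% of the windows of Acaa1b and 34% of those of Acaa1a, and Dlec1 covers 11.4% of the exonic bases of Acaa1b on the opposite strand. Ehhadh, the L-bifunctional enzyme that carries the hydratase and dehydrogenase reactions, had 1197, 975 and 985 CPM in WT and 640, 616 and 582 CPM in KO at ZT4. At ZT16, Ehhadh had 1380, 1374 and 1492 CPM in WT and 1217, 960 and 880 CPM in KO. KO lay below WT at both times, with -0.78 ± 0.12 (adjusted p = 0.00386) at ZT4, -0.47 ± 0.12 (adjusted p = 0.0529) at ZT16 and -0.63 ± 0.10 (adjusted p = 0.00058) at ZT16 without replicate 2. Acox3, an oxidase of branched chains, had 283, 311 and 333 CPM in WT and 243, 282 and 259 CPM in KO at ZT4. At ZT16, Acox3 had 359, 334 and 345 CPM in WT and 263, 280 and 287 CPM in KO. All KO libraries lay below WT, and it was called over both times (-0.28 ± 0.06, adjusted p = 0.011). The single times did not pass (-0.24 ± 0.09, adjusted p = 0.161 and -0.32 ± 0.09, adjusted p = 0.0595) and passed without replicate 2 (-0.24 ± 0.07, adjusted p = 0.0431 and -0.30 ± 0.08, adjusted p = 0.0165). Acox2, another branched-chain oxidase, ranged from 94.2 to 126 CPM and Hsd17b4, the D-bifunctional enzyme, from 169 to 218 CPM, and neither was called in the 12 libraries (0.03 ± 0.08 and -0.08 ± 0.07 at ZT4, 0.28 ± 0.08 and -0.10 ± 0.07 at ZT16). Without replicate 2, Acox2 was called higher at ZT16 (0.25 ± 0.08, adjusted p = 0.0286) and over both times (0.14 ± 0.05, adjusted p = 0.0454).

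The thioesterases, which release the fatty acid from acyl-CoA, differed among themselves although 4 of the 5 lie in one cluster on chromosome 12. Acot1 (ENSMUSG00000072949, chr12:84009490-84018371), the cytosolic form, had 41.2, 35.3 and 32.5 CPM in WT and 22.9, 19.3 and 20.2 CPM in KO at ZT4. At ZT16, Acot1 had 37.5, 39.6 and 32.6 CPM in WT and 25.1, 22.1 and 23.1 CPM in KO. No KO library reached a WT library, and neither genotype passed the test for time. The fold change was -0.81 ± 0.11 (adjusted p = 0.00156) at ZT4, -0.64 ± 0.11 (adjusted p = 0.00568) at ZT16 and -0.72 ± 0.08 (adjusted p = 9.55e-05) over both times. Acot2, the mitochondrial form next to it, ranged from 10.5 to 15.6 CPM with overlapping groups and was called in no comparison (0.13 ± 0.13 and 0.07 ± 0.13). Acot1 and Acot2 have 33% and 27.7% of their windows in other transcripts, mostly each other. Acot3, a peroxisomal form with 19.5% of its windows in other transcripts, mostly Acot5, had 13.7, 12.2 and 13.7 CPM in WT and 11.8, 9.81 and 11.7 CPM in KO at ZT4. At ZT16, Acot3 had 18.2, 19.4 and 11.6 CPM in WT and 10.9, 11.4 and 10.6 CPM in KO. It was called lower over both times (-0.42 ± 0.11, adjusted p = 0.0363), a call lost in 10 of the 12 fits that left out 1 library (-0.45 to -0.35, adjusted p up to 0.0981). Its ZT16 fold change was -0.58 ± 0.16 (adjusted p = 0.0751), and -0.59 ± 0.17 (adjusted p = 0.0207) without replicate 2. Acot4, whose E-box is shown with the promoters, ranged from 33.7 to 44.7 CPM and was called in no comparison of the 12 libraries (-0.09 ± 0.08, adjusted p = 0.539 and -0.23 ± 0.08, adjusted p = 0.126), but was called lower without replicate 2 at ZT16 (-0.24 ± 0.08, adjusted p = 0.0334) and over both times (-0.16 ± 0.05, adjusted p = 0.0225). Acot12, the cytosolic acetyl-CoA hydrolase encoded on chromosome 13, had 153, 180 and 189 CPM in WT and 155, 165 and 154 CPM in KO at ZT4. At ZT16, Acot12 had 196, 209 and 204 CPM in WT and 159, 167 and 171 CPM in KO. The ZT4 groups overlapped and the ZT16 groups did not, and the call over both times (-0.22 ± 0.06, adjusted p = 0.0391) was lost in 10 of the 12 fits that left out 1 library (-0.23 to -0.18, adjusted p up to 0.102). Its ZT16 fold change was -0.30 ± 0.09 (adjusted p = 0.0861), and -0.28 ± 0.08 (adjusted p = 0.0236) without replicate 2.

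Levels of the genes can be set beside each other per length of the principal transcript. In WT at ZT4, Slc27a2 had 1315 ± 43.8 (SD, n = 3) CPM per kb, followed by Acadm with 506 ± 5.75. Etfb at 385 ± 32.6, Ech1 at 372 ± 38.7, Ehhadh at 353 ± 42.1 and Pecr at 342 ± 16.8 CPM per kb came next, and neighbours in that order differed by less than their SD. Acot2 (6.14 ± 0.906), Acot4 (6.09 ± 0.284) and Acot3 (3.86 ± 0.255) were the lowest of the 43. With the length of all annotated exons instead, Slc27a2 stayed first and Acadm took rank 5, behind Slc27a2, Ehhadh, Etfb and Pecr.

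Between the phases, few genes of the pathway were called, all of them higher in the dark phase at ZT16. In WT, 36 of the 43 genes had a positive log2 fold change of ZT16 against ZT4, with a median of 0.22 against -0.01 over all genes. 6 were called higher (2.87% of all genes) and none lower (3.63% of all genes): Acsl3 (0.40 ± 0.11, adjusted p = 0.0439), Acsl4 (0.34 ± 0.08, adjusted p = 0.0251), Cpt2 (0.25 ± 0.06, adjusted p = 0.0406), Acadvl (0.30 ± 0.08, adjusted p = 0.0495), Eci2 (0.68 ± 0.17, adjusted p = 0.0357) and Decr2 (0.30 ± 0.08, adjusted p = 0.0452). For 27 genes all WT ZT16 libraries lay above all WT ZT4 libraries (21.3% of all genes). In KO, 35 were positive, with a median of 0.15 against -0.01, and 12 were called higher (5.27% of all genes) and none lower (5.20% of all genes). For 19 genes the KO ZT16 libraries all lay above the KO ZT4 libraries (21.1% of all genes). Ehhadh (0.73 ± 0.12, adjusted p = 0.00922) kept this call whichever library was left out and lost it in the fit of only the 6 KO libraries (adjusted p = 0.0678), in which none of the 43 was called. The others were Ech1 (0.96 ± 0.26, adjusted p = 0.0386), Etfb (0.77 ± 0.19, adjusted p = 0.032), Eci2 (0.69 ± 0.17, adjusted p = 0.0299), Acaa2 (0.63 ± 0.18, adjusted p = 0.0432), Etfdh (0.62 ± 0.15, adjusted p = 0.0295), Acad11 (0.52 ± 0.13, adjusted p = 0.0299), Decr1 (0.41 ± 0.12, adjusted p = 0.0482), Acadvl (0.37 ± 0.08, adjusted p = 0.022), Acadm (0.30 ± 0.08, adjusted p = 0.0391), Decr2 (0.28 ± 0.08, adjusted p = 0.0467) and Cpt2 (0.26 ± 0.06, adjusted p = 0.0311). Cpt2, Acadvl, Eci2 and Decr2 were called in both genotypes, which is 66.7% of the calls in WT and 33.3% of those in KO. Calls shared by both genotypes were not counted over all genes.

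**Figure D4:**
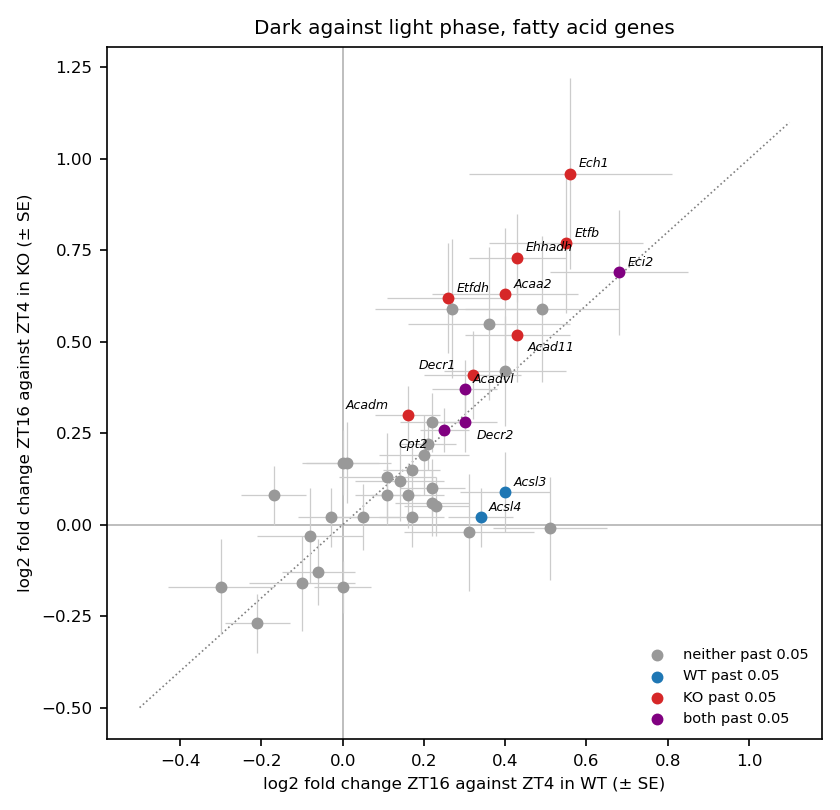
Log2 fold change of ZT16 against ZT4 in WT (x axis) and in KO (y axis) for the 43 genes, with ± SE on both axes and a dotted line where both are equal. Most points lie above 0 on both axes, Ech1 is the highest in KO, and Acsl3 and Acsl4 lie above 0 in WT and near 0 in KO.

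The counts between phases moved with single libraries. Without KO ZT16 replicate 2, 24 genes were called higher in WT (17.5% of all genes) and 8 in KO (3.85% of all genes), and the KO fold change became smaller by more than 1.5 times for Acaa2 (0.33 ± 0.10, adjusted p = 0.0565), Decr1 (0.22 ± 0.07, adjusted p = 0.0622), Ech1 (0.45 ± 0.10, adjusted p = 0.0165), Etfb (0.41 ± 0.09, adjusted p = 0.0122), Eci2 (0.38 ± 0.07, adjusted p = 0.00832), Etfdh (0.37 ± 0.08, adjusted p = 0.0176) and Acad11 (0.33 ± 0.08, adjusted p = 0.0237). Acadm (0.24 ± 0.07, adjusted p = 0.0527) and Decr2 (0.21 ± 0.07, adjusted p = 0.0916) lost their calls in KO as well, and Cpt1a was called lower in WT (-0.20 ± 0.07, adjusted p = 0.0417). The 8 genes called in KO were then Cpt2, Acadvl, Acad11, Etfb, Etfdh, Eci2, Ech1 and Ehhadh. Each of the 6 calls in WT was lost on leaving out 5 to 11 of the single libraries, at adjusted p up to 0.19, and without WT ZT4 replicate 5, WT ZT16 replicate 1 or WT ZT16 replicate 3 none of the 43 was called higher in WT. Without KO ZT4 replicate 4 or 6 only 1 gene was called higher in KO.

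No gene of the pathway passed the test of the difference itself, that is of the genotype effect at ZT16 against that at ZT4. Here edgeR and DESeq2 each called 0 of the 43, and edgeR called 3 of all 16150 genes (0.0186%). An unadjusted p under 0.05 in edgeR was found for 3 of the 43. The share of all genes at that unadjusted threshold is not given, so this count does not set the pathway against the whole table. Of the 43 genes, 42 had the same sign of the genotype effect at both times, a count that was not made over all genes. The most negative difference was that of Acaa1b (-0.52 ± 0.20), followed by Acot3 (-0.33 ± 0.23), Acsl3 (-0.32 ± 0.15) and Acsl4 (-0.32 ± 0.11), and the most positive that of Ech1 (0.40 ± 0.36), where replicate 2 raised the KO ZT16 mean. Cd36 and Ehhadh, called at ZT4 alone, and Acaa1a, Acsl3 and Acsl4, called at ZT16 alone, are not shown to differ between the times by this test.

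Of 54 further genes of the pathway, which cover the carnitine system, peroxisomes, binding proteins, other synthetases and dehydrogenases, ketone body enzymes and malonyl-CoA metabolism, 53 were tested. At ZT4 2 of the 53 were called lower (1.66% of all genes) and none higher: Slc22a5, the carnitine transporter of the cell surface (-0.86 ± 0.09, adjusted p = 0.000286), and Slc25a20, the carnitine and acylcarnitine carrier of the inner mitochondrial membrane (-0.74 ± 0.09, adjusted p = 0.000632). At ZT16 5 were called lower (1.96% of all genes). The same 2 were lower (-1.01 ± 0.09, adjusted p = 6.64e-05 and -0.90 ± 0.09, adjusted p = 9.75e-05), together with Nudt19, a peroxisomal CoA diphosphatase (-0.97 ± 0.13, adjusted p = 0.00099), Phyh, the phytanoyl-CoA hydroxylase (-0.42 ± 0.10, adjusted p = 0.0316), and Abcd3, a peroxisomal fatty acid transporter (-0.38 ± 0.07, adjusted p = 0.0127), and none was higher. Both carnitine carriers were lower at both times, as were Cpt1a, Cpt2 and Crat, with larger fold changes than those 3, a difference that was not tested. Over both times 12 were lower (5.31% of all genes) and 2 higher (6.04% of all genes). The 8 with the smallest adjusted p were Slc22a5 (-0.93 ± 0.07, adjusted p = 2.76e-06), Slc25a20 (-0.82 ± 0.06, adjusted p = 5.38e-06), Nudt19 (-0.70 ± 0.09, adjusted p = 0.000421), Abcd3 (-0.33 ± 0.05, adjusted p = 0.00175), Phyh (-0.37 ± 0.07, adjusted p = 0.00425), the synthetase Acsm1, which was higher (0.40 ± 0.08, adjusted p = 0.00899), Acsm3, a medium-chain synthetase (-0.88 ± 0.20, adjusted p = 0.0159), and Acss1, the mitochondrial acetyl-CoA synthetase, also higher (0.26 ± 0.06, adjusted p = 0.0168). The median of the 53 was -0.16 at ZT4, -0.07 at ZT16 and -0.10 over both times, nearer to 0 than that of the 43. Both lists were chosen with earlier results of these data known, and the part of that choice in this difference was not tested. Between the phases 5 were higher in WT (2.87% of all genes) and none lower, and in KO 5 were higher (5.27% of all genes) and 1 lower (5.20% of all genes).

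Markers of other parts of the kidney were read beside these values. The 8 proximal tubule markers, of the segment that burns most fatty acids, summed to 10918 to 11889 CPM in WT ZT4, 10918 to 11100 in KO ZT4, 10092 to 11101 in WT ZT16 and 8753 to 10922 in KO ZT16, and 1 of 8 was lower at ZT4 (Slc7a13, -0.73 ± 0.16, adjusted p = 0.027) and none at ZT16. Slc34a1 (3001 to 5183 CPM over the 12 libraries) and Lrp2 (2322 to 2938 CPM) weighed most in this sum. Of the 3 markers of the thick ascending limb, Umod carried most of the counts. They summed to 5273 to 5860 and 4341 to 4481 CPM at ZT4 and to 6178 to 7549 and 5308 to 6814 CPM at ZT16, in WT and KO, with 1 of 3 lower at ZT4 (Umod, -0.55 ± 0.13, adjusted p = 0.0467) and none called at ZT16. Slc12a1 and Cldn16, the other two, did not pass at ZT4 (0.21 ± 0.07 and -0.06 ± 0.17) or at ZT16 (0.13 ± 0.07 and 0.00 ± 0.17). Of 5 macrophage markers, with sums of 119 to 152 and 99.2 to 109 CPM at ZT4 and 118 to 131 and 96.8 to 111 CPM at ZT16, Csf1r was lower at both times (-0.33 ± 0.08 each, adjusted p = 0.0419 and 0.036). The 4 endothelial markers summed to 290 to 316 CPM in WT ZT4, 256 to 271 in KO ZT4, 275 to 298 in WT ZT16 and 240 to 280 in KO ZT16. None of the markers of the distal convoluted tubule, the collecting duct principal and intercalated cells, podocytes or endothelium was called for genotype at either time. The 3 distal convoluted tubule markers summed to 483 to 646 and 646 to 696 CPM at ZT4 and to 464 to 581 and 540 to 772 CPM at ZT16, in WT and KO, and the 3 podocyte markers to 188 to 226 and 229 to 243 CPM at ZT4 and to 146 to 179 and 144 to 197 CPM at ZT16. Over both times, Slc7a13 (-0.64 ± 0.11, adjusted p = 0.00304), Umod (-0.46 ± 0.10, adjusted p = 0.00861) and Csf1r (-0.33 ± 0.06, adjusted p = 0.00247) were lower, and Trpm6 of the distal convoluted tubule (0.46 ± 0.11, adjusted p = 0.0197) and Scnn1b of the collecting duct (0.26 ± 0.06, adjusted p = 0.019) were higher. Adrenal cortex markers summed to 0.451 to 0.898 CPM over the 12 libraries, and Cyp11b1 was at 0 in all of them. The part of these shifts in the fatty acid genes was not tested.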

How the data were processed

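Whole-kidney RNA was sequenced as TruSeq Stranded mRNA libraries, per the labels' protocols. The deposited values are raw read counts per gene. The authors trimmed reads with cutadapt 1.2.1, aligned them to GRCm38 with TopHat2 2.0.9 and counted with HTSeq 0.5.4p3, per the submitters' processing notes. Whether HTSeq used strand, in which mode it counted and with which annotation is "not given in the sources used here". Lines for reads assigned to no gene were left out of library sizes. Reads in no feature made up 3.50% to 5.96% of all counts of a library, ambiguous reads made up 0.411% to 0.534%, and alignments counted as not unique 30.8% to 43%. A read with several alignments may enter the last share more than once.

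GENCODE M21 named 37607 of 38924 IDs and gave positions, lengths and overlaps. After filterByExpr and TMM scaling, the quasi-likelihood test of edgeR 4.0.16 was run in R 4.3.3 on a single model with all 12 libraries. It had 8 residual degrees of freedom and a common dispersion of 0.01785. Adjusted p is Benjamini-Hochberg over the 16150 tested genes, and a gene was called under 0.05. CPM are TMM-scaled, and log2 CPM used a prior count of 2. The 6 comparisons were KO against WT at ZT4, at ZT16 and over both times, the change from ZT4 to ZT16 within WT and within KO, and the interaction. The pipeline was tested on simulated data. Alternatives were DESeq2 1.42.0, 2 other scalings (RLE, upper quartile), other filters (none, or 5 CPM on average), fits of only the 6 libraries compared, fits without 1 library, and a block for the replicate number. No 2 libraries were alike within sampling noise (chi-square per degree of freedom 4.71 to 191 within groups). The lowest of these values was that of KO ZT16 replicates 4 and 6, which remain when replicate 2 of that group is left out. Shared sequence is the share of 50-base windows of the principal transcript found in transcripts of another gene. The members, the other gene lists and the comparisons were chosen with earlier results of these data known. All 43 genes are accounted for, those called in at least 1 comparison with every library's value, and of the other pathway genes those called with the 8 smallest adjusted p per genotype comparison are named.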

Additional observations from a re-analysis of the deposited data

How the results depend on the processing

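No gene of the pathway that was called in the 12 libraries reversed its direction under any alternative run, and RLE scaling kept the number of genes called within 1.5 times in every comparison. DESeq2 called 20 genes lower at ZT4, 18 lower and 3 higher at ZT16, 14 higher between the phases in WT, and 19 higher and 1 lower in KO. Fitting only the 6 libraries compared gave 24 lower and 1 higher at ZT4, 4 lower at ZT16, 15 higher between the phases in WT and 0 in KO. Upper-quartile scaling gave 1 higher at ZT16, 2 higher between the phases in WT and 1 lower in KO. No filter left 3 higher between the phases in WT, and a mean of at least 5 CPM gave 1 higher at ZT16 and 1 lower between the phases in KO. Over the 12 fits that left out 1 library each, 5 to 25 genes were lower at ZT4 and 0 higher, 7 to 32 lower and 0 to 3 higher at ZT16, and 19 to 34 lower and 1 to 3 higher over both times. Between the phases, 0 to 24 were higher and 0 to 1 lower in WT, and 1 to 17 higher and 0 to 1 lower in KO, and the interaction had 0 in each. The highest counts for genotype and for WT came without KO ZT16 replicate 2, and the highest count for KO came without KO ZT16 replicate 6. Without KO ZT16 replicate 2, 7.48% of all genes were called lower at ZT4, 16.5% at ZT16 and 21.7% over both times, and 17.5% higher between the phases in WT. Shares of all genes are not given for the other runs, so their counts do not set the pathway against the whole table. The calls kept whichever library was left out were 5 of 10 at ZT4 (Cpt2, Crat, Acadl, Ehhadh and Acot1), 7 of 11 at ZT16 (Slc27a2, Acsl3, Cpt1a, Cpt2, Acadl, Acaa1b and Acot1), 19 of 26 over both times, 0 of 6 in WT and 1 of 12 in KO (Ehhadh). Under every alternative run, 5, 4, 19, 0 and 0 were kept, as the ZT16 calls of Slc27a2, Cpt1a and Acot1 and the KO call of Ehhadh were lost in the fit of only the 6 libraries compared. The cause of these shifts was not tested. The replicate numbers are shared between the phases within a genotype but did not pair the libraries: deviations of same-numbered libraries correlated at 0.05, -0.07 and -0.27 in WT and at -0.01, -0.05 and -0.00 in KO, and with the replicate block 0 genes were called higher in WT and 1 in KO. With 3 libraries a group and 1 of them apart, differences of the size seen in the later mitochondrial steps may not be detectable.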
